A study of Schizosaccharomyces pombe with 2 samples.

Results

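The right-end block of chromosome 2 is a separately tiled stretch of the fission yeast (Schizosaccharomyces pombe) genome, and RNA from it was compared between 2 histone chaperone mutants and wild type. Its members are the 999 of 43993 non-control probes whose position in the array files lies at chr2:4491601-4541560, and they were chosen by position alone. Of these, 500 are on the plus and 499 on the minus strand. The probes are 60 bases long, alternate between strands every 50 bp, and so recur every 100 bp on each strand over a block of 49960 bp. One two-colour array carried Cy5-labelled RNA of asf1-1 cells and the other that of cells with hip1 deleted (Δhip1), and on each the Cy3 channel was wild type. Cultures of all strains grew exponentially in rich medium (YEA) at 30 °C, and the RNA was depleted of ribosomal RNA before labelling. Each mutant has a single array and dyes were not swapped, so no difference could be tested and dye and genotype cannot be told apart. Neither the number of clones per genotype nor whether the wild-type channels came from 1 RNA extract is given.

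Asf1 is a chaperone that carries histones H3 and H4. Hip1 belongs to the HIRA complex, which deposits the same histones outside of DNA replication. In fission yeast the DNA next to a chromosome end is packed into heterochromatin, marked by methylation of histone H3 on lysine 9 and bound by the HP1 protein Swi6, and most of its genes are transcribed at low levels. The ends of chromosomes 1 and 2 are known to share similar sequence, including genes of a RecQ-type helicase family. By its title, the series asked how these chaperones bear on nucleosomes in heterochromatin.

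Positions follow the array's own numbering, for which no genome build is given, and no probe was paired here with a gene or a sequence. Loci are therefore given by position and probe strand, and distance is counted from the outer end of the tiled block at 4541560, whose distance from the telomere was not analysed here. Signal from similar sequences at other chromosome ends was not separated, and strand means that of the probe as the files give it, not a transcript's. After outlier spots (11 probes) and probes not well above background in any of the 4 channels (92 probes) were left out, 896 probes remained, 452 on the plus and 444 on the minus strand. No probe of the block was saturated. Of the 999 probes, 57.6% were well above background in the wild-type channel of the asf1-1 array and 59.2% in that of the Δhip1 array, against 88.6% in the asf1-1 and 78.5% in the Δhip1 channel. Over all probes of the arrays the corresponding shares were 79.6% and 78.9% for wild type, and 93.9% and 88.8% for the mutants.

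RNA from the block stood above wild type more often than below it on both arrays, but asf1-1 also had a stretch far below wild type near the end, which Δhip1 did not show. Values are log2 ratios of mutant over wild type, normalized by loess within each array, and a window is the median over the probes of 1 strand in 1 kb. Of 101 windows, 29 stood at least 2-fold above wild type in asf1-1 (28.7%), against 13.6% of the 4380 windows of that array, and 18 in Δhip1 (17.8%), against 12.7%. In the other direction, 10 windows were at least 2-fold lower in asf1-1 (9.90%), against 7.42% of all windows, a share near that of the whole array, and 0 in Δhip1, against 3.63%. All 10 lay on the plus strand, and 9 of them in the outer 15 kb. The median over windows was 0.52 in asf1-1 and 0.37 in Δhip1, against 0.03 and 0.01 over all windows. In RNA from whole cultures, fewer cells that transcribe a locus and less RNA per cell cannot be told apart.

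In the long block of chromosome 2, which holds 4074 of the windows, 12.5% were at least 2-fold higher in each mutant, and 7.34% in asf1-1 and 3.53% in Δhip1 were lower. The left block of chromosome 3, the only other tiled chromosome end compared here, had 39 of 100 windows higher and 10 lower in asf1-1, and 11 higher and 14 lower in Δhip1. These counts depend on the scaling. In the right-end block the higher windows ranged from 28 to 64 in asf1-1 and from 17 to 37 in Δhip1 over the other ways of processing at the same threshold and window size, and the lower windows from 6 to 13 in asf1-1 and from 0 to 2 in Δhip1. Before loess, the median log2 ratio over all probes was 0.85 on the asf1-1 and 0.15 on the Δhip1 array, so an overall rise or fall of RNA would have been removed.

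**Figure D1:**
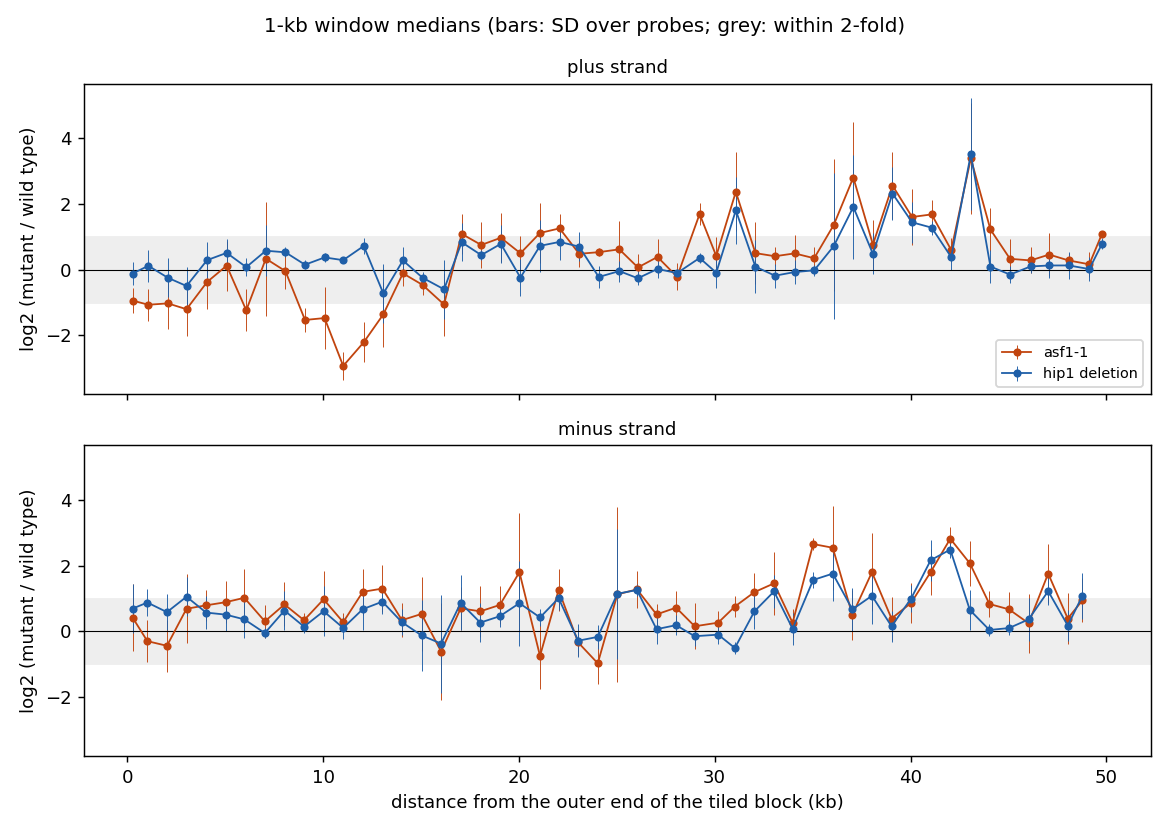
Median log2 ratio of mutant over wild type in 1-kb windows of each strand (y axis) against distance in kb from the outer end of the block (x axis), asf1-1 in red and Δhip1 in blue. Bars are the SD over the probes of a window, which covers spot differences only, and the grey band marks changes under 2-fold. On the plus strand the asf1-1 windows drop to -2.93 in the window from 10.6 to 11.46 kb from the end. In the run of 5 low windows around it, Δhip1 lies between -0.72 and 0.72, within 2-fold of wild type. Both arrays share high windows between 30.6 and 43.56 kb on that strand.

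The lowest windows of asf1-1 formed a run of 5 on the plus strand at chr2:4528001-4532960, from 8.6 kb inwards. At chr2:4530101-4530960 the median log2 signal was 8.65 in asf1-1, against 11.57 in wild type on the same array, 11.70 in Δhip1 and 11.43 in wild type on the Δhip1 array. The asf1-1 channel alone was low, and the other channels were close together. This gave asf1-1 a log2 ratio of -2.93 ± 0.44 and Δhip1 one of 0.29 ± 0.09 (SD over 9 probes). The neighbouring window at chr2:4529001-4529960 had -2.21 ± 0.61 in asf1-1 and 0.72 ± 0.24 in Δhip1 (SD over 10 probes). Those at chr2:4531001-4531960 and chr2:4532001-4532960 had -1.47 ± 0.95 and -1.53 ± 0.35 in asf1-1, against 0.37 ± 0.14 and 0.15 ± 0.13 in Δhip1 (SD over 10 probes). All probes of these 4 windows were well above background in all 4 channels. Over the run, the median was -1.94 in asf1-1 and 0.30 in Δhip1. It stayed between -2.28 and -1.94 in asf1-1 under the other ways of processing, whereas in Δhip1 it ranged from -0.29 to 0.32 and so has no settled sign.

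Probe by probe, the lowered stretch was cut into parts with sharp edges. These limits were set after the values had been seen. At chr2:4528001-4528660, 7 of 7 probes were below wild type in both mutants, with a median of -1.27 (-3.26 to -0.91) in asf1-1 and -0.94 (-1.58 to -0.54) in Δhip1, so the arrays overlapped there. The next 13 probes towards the end, at chr2:4528701-4529960, had a median of -2.53 (-3.71 to -1.77) in asf1-1 and 0.76 (0.07 to 0.92) in Δhip1. From 1 probe to the next the mutants thus changed from overlapping to separate, with asf1-1 lower and Δhip1 above 0 on 13 of 13 probes. The wild-type signals of the arrays differed by a median of -0.30 on these probes (asf1-1 array minus Δhip1 array), and the mutant signals by -3.37.

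Further towards the end, the 14 probes at chr2:4530101-4531460 had a median of -2.51 (-3.20 to -1.50) in asf1-1 and 0.32 (0.13 to 0.58) in Δhip1. The asf1-1 ratio then came back towards wild type at chr2:4531501-4531960, with a median of -0.64 (-1.44 to -0.01) over 5 probes. At chr2:4532001-4532860 it was low again, at -1.61 (-2.09 to -1.26) over 9 probes, against 0.12 (-0.02 to 0.36) in Δhip1. From chr2:4533201 to 4534660 no probe was 2-fold lower: the median was 0.26 (-0.43 to 0.91) over 14 probes in asf1-1 and 0.58 (0.40 to 0.82) in Δhip1, and the ranges overlapped. The asf1-1 median was -0.13 with median centring and -0.22 with exchanged wild-type channels, so its sign is not settled. The wild-type signals of the arrays differed there by a median of -0.42 and the mutant signals by -0.75. The wild-type signal was well above background at all 65 measured probes from chr2:4528001 to 4534660, so the whole stretch was measured on both arrays. In it, asf1-1 was low in the inner part and within 2-fold of wild type from chr2:4533201 outwards.

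**Figure D2:**
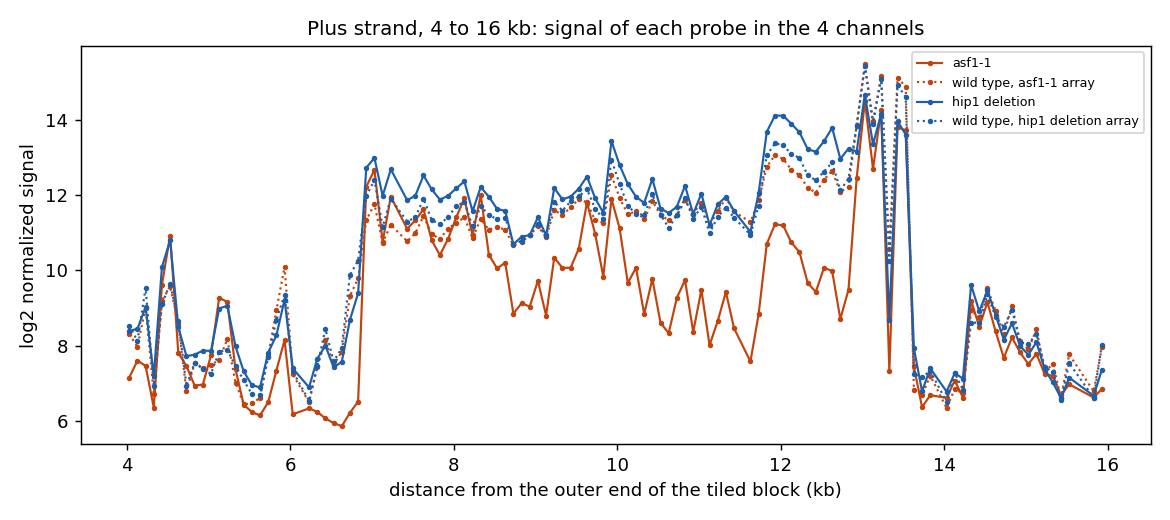
Log2 normalized signal of each plus-strand probe (y axis) against distance in kb from the outer end (x axis), between 4 and 16 kb, with mutants as solid and wild type as dotted lines, the asf1-1 array in red and the Δhip1 array in blue. Between 8.7 and 12.86 kb the solid red line, asf1-1, lies below the other channels, and between 6.9 and 8.36 kb it lies within 2-fold of wild type on the same array.

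On the outer side of that stretch, the 12 measured probes at chr2:4534701-4535960 were again low in asf1-1, with a median of -1.57 (-3.28 to -0.16), against -0.14 (-1.20 to 0.36) in Δhip1. Here the asf1-1 channel was well above background on 5 of 12 probes. The window at chr2:4535001-4535960 had -1.24 ± 0.64 (SD over 9 probes), with the asf1-1 channel well above background on 3 of 9 probes. It ranged from -2.49 to -0.49 under the other ways of processing, so neither its size nor its place past the 2-fold limit is settled. At least 50% of the probes were not well above background in the lower channel in 1 of the 10 lower and 5 of the 29 higher windows of asf1-1 and in 1 of the 18 higher windows of Δhip1, and the size of those changes is poorly measured.

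The outermost plus-strand windows were lower in asf1-1 too, by about as much as the 2-fold limit. A run of 3 windows at chr2:4538101-4540960 had -1.20 ± 0.82, -1.02 ± 0.77 and -1.07 ± 0.49 (SD over 8 or 9 probes), against -0.50 ± 0.57, -0.25 ± 0.60 and 0.12 ± 0.48 in Δhip1. The last window, at chr2:4541001-4541560, had -0.94 ± 0.38 and -0.12 ± 0.34 (SD over 6 probes). Over the outermost 3.46 kb the log2 ratio was below 0 on 31 of 32 measured probes in asf1-1 and on 19 of 32 in Δhip1. The wild-type signals of the arrays differed there by a median of -0.07 and the mutant signals by -0.74. With median centring in place of loess, the median over these probes was -0.19 in asf1-1, and with loess on bright probes it was -0.48, so the size of this deficit is not settled.

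On the minus strand over the same outermost stretch, the 2 wild-type channels themselves were apart. At chr2:4538051-4541510 the wild-type signal was higher on the asf1-1 array on 31 of 33 measured probes, by a median of 1.18 on the log2 scale. In medians over windows, the wild-type signals were at least 2-fold apart in 3 of the 4 outermost minus-strand windows, in 0 of the other 97 windows of the block and in 14 of all 4380 windows. The mutant signals differed by a median of 0.28 over those 33 probes. Relative to wild type on its own array, asf1-1 had a log2 ratio of 0.02 ± 0.96 and Δhip1 of 0.87 ± 0.55 (SD over 33 probes). With the wild-type channels exchanged between arrays, these values became 1.05 and -0.27, so the order of the mutants reversed. No direction for either mutant is settled on this strand at the end.

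**Figure D3:**
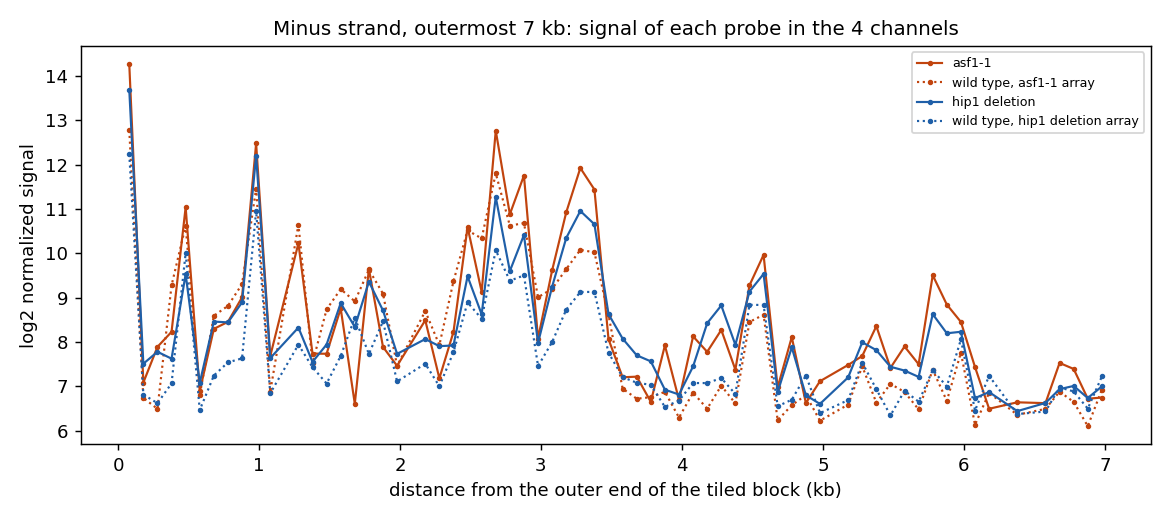
Log2 normalized signal of each minus-strand probe (y axis) against distance in kb from the outer end (x axis), in the outermost 7 kb, with mutants as solid and wild type as dotted lines, the asf1-1 array in red and the Δhip1 array in blue. Within 3.51 kb of the end the dotted red line lies above the dotted blue line at most probes, a median of 1.18 apart.

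Farther inside, between 30 and 45 kb from the end, both mutants had RNA above wild type in short stretches on both strands. The highest window of the block on both arrays was on the plus strand at chr2:4498001-4498960, with a log2 ratio of 3.38 ± 1.69 in asf1-1 and 3.51 ± 1.71 in Δhip1 (SD over 10 probes). The large SD came from its edges: 7 neighbouring probes at chr2:4498201-4498860 had a median of 3.55 (2.83 to 3.76) in asf1-1 and 3.65 (2.97 to 3.71) in Δhip1. Their median log2 signals were 11.75 in asf1-1 and 12.12 in Δhip1, against 8.36 and 8.45 in wild type. The mutants overlapped, and both stood far above both wild-type channels, by 11.7-fold in asf1-1 and 12.5-fold in Δhip1.

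A second plus-strand locus lay at chr2:4503601-4505660. All 21 probes were at least 2-fold higher in asf1-1, with a median of 2.27, and 18 of 21 in Δhip1, with a median of 1.79. In its middle, 12 probes at chr2:4504201-4505360 had a median of 4.40 (1.77 to 5.61) in asf1-1 and 4.04 (1.32 to 5.18) in Δhip1, which is 21.1-fold and 16.5-fold, and included the highest plus-strand probe of the block on both arrays. The wild-type channel was well above background on 9 and 10 of these 12 probes. At chr2:4502101-4502960, 9 of 9 probes were higher in both mutants, with a median of 2.62 (2.18 to 2.87) in asf1-1 and 2.33 (1.94 to 2.58) in Δhip1. At chr2:4510201-4510860, 7 of 7 probes were higher, with 2.66 (1.04 to 3.19) and 1.97 (1.27 to 2.17). In each of these stretches the ranges of the mutants overlapped.

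The minus strand had high stretches too, some of them opposite high stretches of the plus strand. At chr2:4498951-4500910, 18 of 19 probes were at least 2-fold higher in asf1-1, with a median of 2.43 (0.80 to 3.03), and 19 of 19 in Δhip1, with 2.38 (1.21 to 2.94). Its outer part overlaps in position a plus-strand stretch at chr2:4500001-4501260, where 13 of 13 probes were at least 2-fold higher in asf1-1 and 11 of 13 in Δhip1, with medians of 1.81 and 1.37. At chr2:4515151-4516510, 10 of 14 probes were higher in asf1-1 and 14 of 14 in Δhip1, with medians of 1.47 and 1.24. With median centring these medians were 0.51 and 0.61, so a 2-fold rise is not settled there. The mutants overlapped in both minus-strand stretches. The highest single probe of the block on both arrays, at chr2:4516651-4516710, stands just outside the second of these, with 6.28 in asf1-1 and 6.47 in Δhip1. Its neighbours on that strand had 1.11 and -1.54 in asf1-1 and 0.89 and -0.26 in Δhip1, so that value rests on 1 probe, which was singled out after the values were seen. Nearer the end, a short minus-strand stretch of 5 probes at chr2:4521651-4522110 was high in both mutants. Its median was 3.69 (0.83 to 3.82) in asf1-1 and 2.83 (1.09 to 2.93) in Δhip1, and the mutants overlapped there too.

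Other minus-strand stretches did not overlap between the mutants. At chr2:4498051-4498710, 7 of 7 probes were at least 2-fold higher in asf1-1, with a median of 2.07 (1.16 to 2.31), against 0.65 (0.25 to 1.01) in Δhip1, but the wild-type channel was well above background on 1 of 7 probes on both arrays. At chr2:4505351-4507010, 17 of 17 probes were higher in both, but asf1-1 lay at 2.66 (2.38 to 3.04) and Δhip1 at 1.70 (1.39 to 2.23), with no overlap. There the median log2 signal was 15.54 in asf1-1 and 14.76 in Δhip1, against 12.84 and 12.92 in wild type, so the mutant channels were apart and the wild-type channels were not. With median centring the median ratios were 1.58 in asf1-1 and 0.93 in Δhip1, so a 2-fold rise in Δhip1 depends on the scaling.

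**Figure D4:**
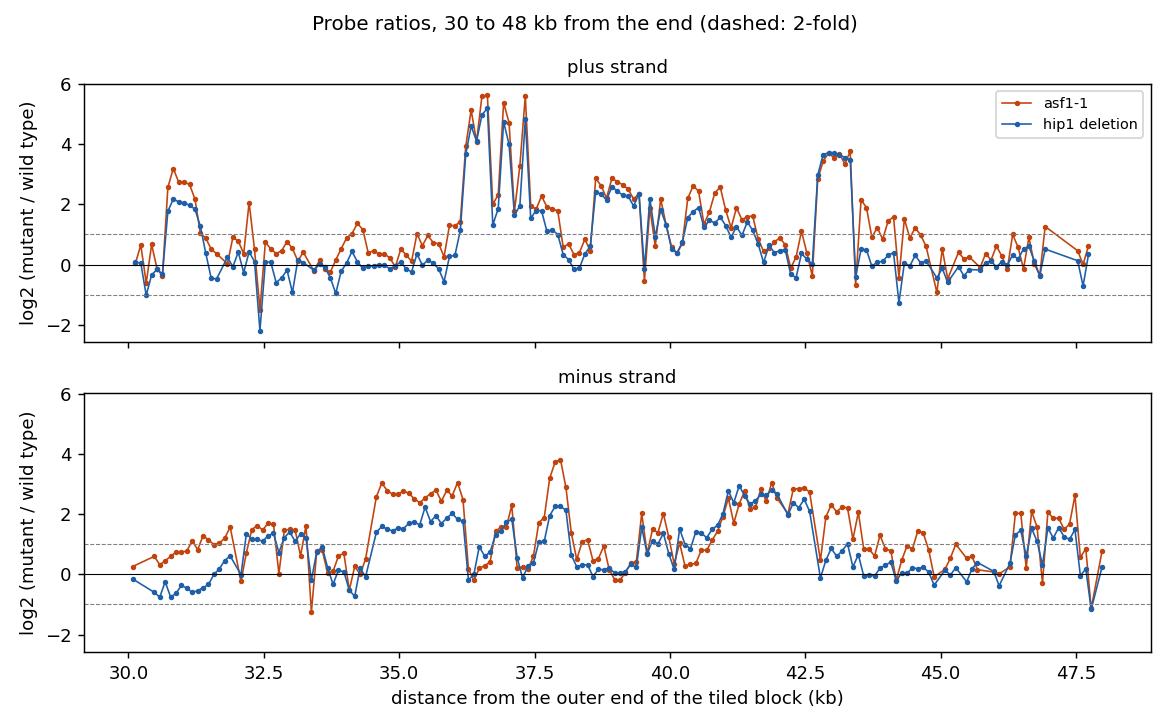
Log2 ratio of mutant over wild type of each probe (y axis) against distance in kb from the outer end (x axis), between 30 and 48 kb, on the plus and minus strand, with asf1-1 in red and Δhip1 in blue. Dashed lines mark 2-fold. The high stretches have sharp edges at like positions on both arrays, and reach 5.61 in asf1-1 and 5.18 in Δhip1 on the plus strand.

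Both mutants were at least 2-fold higher in 16 windows, which is 16 of the 29 in asf1-1 and 16 of the 18 in Δhip1. Over all 4380 windows, both were higher in 435, of 595 in asf1-1 and 555 in Δhip1, so such sharing is common across the arrays. All 29 windows higher in asf1-1 were above 0 in Δhip1. Since both ratios divide by wild-type RNA that may come from 1 extract, this likeness is a description of the values only. Among 50 pairs of windows on opposite strands, both strands were higher in 4 in asf1-1 and in 1 in Δhip1. The plus strand alone was higher in 8 and 5, and the minus strand alone in 12 and 11. Such pairs were not counted over the whole array, so whether this is particular to the block was not examined. The minus strand was higher in 3 of the 10 windows whose plus strand was lower in asf1-1. Opposite the inner part of the lowered stretch, 10 of 11 minus-strand probes at chr2:4528551-4529610 were at least 2-fold higher in asf1-1, with a median of 1.46 ± 0.61, against 0.91 ± 0.64 in Δhip1 (SD over 11 probes). Opposite the lowest plus-strand window, at chr2:4530051-4531010, the minus strand had 0.28 ± 0.29 in asf1-1 and 0.11 ± 0.33 in Δhip1, and 0 of 9 probes were 2-fold higher in asf1-1 (SD over 9 probes).

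The difference between the mutants was taken as the asf1-1 minus the Δhip1 log2 ratio of a window. It was at least 2-fold in favour of asf1-1 in 5 windows (4.95%), against 1.44% of all windows, and in favour of Δhip1 in 9 (8.91%), against 1.48% of all windows. Of these 9, the minus-strand windows at chr2:4539051-4540010 and chr2:4540051-4541010 (-1.02 and -1.17) lie where the wild-type channels were apart, by 1.19 and 1.28, while the mutant signals differed by -0.12 and 0.04, so no difference between the mutants is settled in them. The 4 lowest differences in the block, -3.22, -2.93, -1.84 and -1.68, were those of chr2:4530101-4530960, chr2:4529001-4529960, chr2:4531001-4531960 and chr2:4532001-4532960 on the plus strand, and these are among the 10 lowest of all 4380 windows. With the wild-type channels exchanged between arrays, asf1-1 had -2.77, -2.54, -1.48 and -1.59 in these windows and Δhip1 0.18, 1.04, 0.59 and 0.26, so the signs were the same.

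Windows with the largest excess in asf1-1 lay in the inner part of the block. On the minus strand, chr2:4498051-4499010 had 2.07 ± 0.68 in asf1-1 and 0.65 ± 0.61 in Δhip1 (SD over 9 probes), but the wild-type channel was well above background on 2 of 9 probes on both arrays. The asf1-1 value ranged from 1.90 to 3.94 under the other ways of processing, so its size is poorly measured. On the plus strand, chr2:4512001-4512660 had 1.69 ± 0.33 in asf1-1 and 0.36 ± 0.15 in Δhip1 (SD over 7 probes), with a signal of 9.62 in asf1-1, 8.71 in Δhip1, and 7.94 and 8.34 in wild type. On the minus strand, chr2:4510051-4511010 had 0.76 ± 0.31 and -0.50 ± 0.17 (SD over 10 probes). The last of these values was the lowest of Δhip1 among the windows with at least 80% of probes on 1 side, and it ranged from -0.76 to 0.16 under the other ways of processing, so its sign is not settled. With the wild-type channels exchanged between arrays, chr2:4512001-4512660 had 1.40 in asf1-1 and 0.72 in Δhip1, and chr2:4510051-4511010 had 0.41 and -0.12. The mutant signals differed there by 0.92 and 0.96, and the wild-type signals by -0.46 and -0.43. A 2-fold difference between the mutants is therefore not settled in either window.

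Described by distance, the plus strand of asf1-1 was low near the end and high inside, and the other profiles were flatter. In 5-kb bins from the end inwards, the plus-strand median of asf1-1 was -0.87, -0.55 and -1.89 in the outer 15 kb, then 0.56, 0.86, 0.39 and 0.50 up to 35 kb, 1.87 and 1.23 between 35 and 45 kb, and 0.28 in the innermost bin. That of Δhip1 was 0.00, 0.29 and 0.30 in the outer 15 kb, lay between -0.02 and 0.59 up to 35 kb, was 1.43 and 0.50 between 35 and 45 kb, and 0.10 in the innermost bin. The medians of the mutants were thus apart in the outer 15 kb, but their quartile ranges were separate only in the bin from 10 to 15 kb. In the bins from 0 to 5 and 5 to 10 kb the upper quartile of asf1-1 (-0.29 and 0.16) lay above the lower quartile of Δhip1 (-0.47 and 0.12). The bin from 35 to 40 kb was the highest of the plus strand on both arrays. In the bin from 10 to 15 kb, 32 of 48 probes were at least 2-fold lower in asf1-1 and 2 of 48 in Δhip1. In the bin from 35 to 40 kb, 34 of 50 were at least 2-fold higher in asf1-1 and 30 of 50 in Δhip1. Of all 452 plus-strand probes of the block, 75 were at least 2-fold lower in asf1-1 and 11 in Δhip1. At least 2-fold higher were 117 and 76. Shares of single probes over the whole array were not counted.

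On the minus strand the bins of asf1-1 lay between 0.30 and 0.81, apart from -0.23 at 20 to 25 kb and from 1.40 and 1.43 between 35 and 45 kb. Those of Δhip1 lay between 0.20 and 0.70, apart from 1.04 and 0.99 between 35 and 45 kb. The minus-strand bin at 20 to 25 kb mixed both directions in asf1-1, with 10 of 38 probes at least 2-fold higher and 8 of 38 lower, and its median has no settled sign (-0.47 to 0.38 under the other ways of processing). Bin medians of dim stretches limit what can be read from them: in the innermost plus-strand bin, 29.7% of probes were well above background in the wild-type channel of the asf1-1 array and 35.1% on the Δhip1 array.

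**Figure D5:**
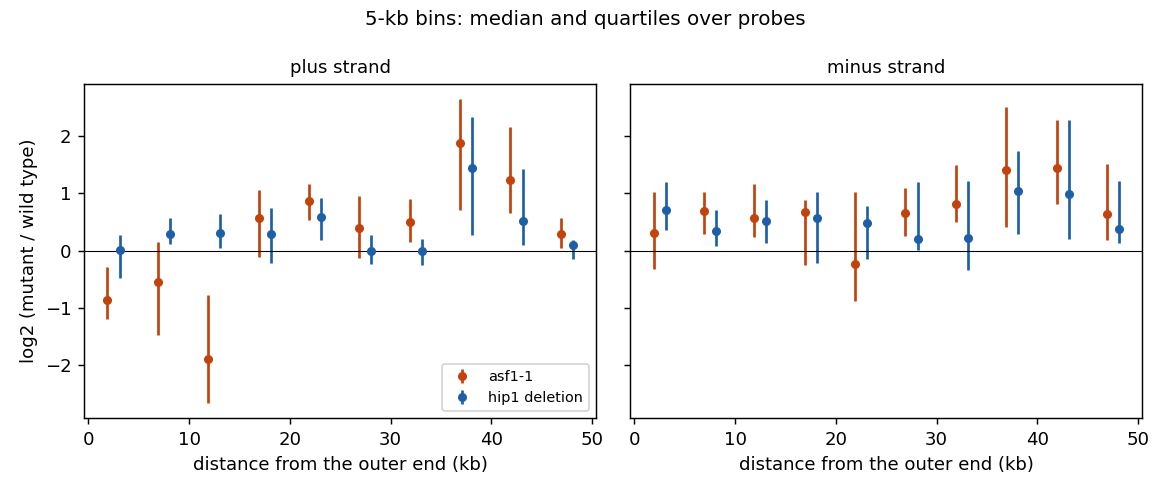
Median log2 ratio of mutant over wild type in 5-kb bins (y axis) against distance in kb from the outer end (x axis) on each strand, asf1-1 in red and Δhip1 in blue, with bars from the lower to the upper quartile over probes. With loess, only the plus strand of asf1-1 has bins below -0.5, all within 15 kb of the end. Both arrays are highest between 35 and 40 kb on the plus strand and between 35 and 45 kb on the minus strand.

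As a description across probes, which are not replicates and share an array, Spearman's coefficient of the log2 ratio with distance from the end was 0.57 on the plus and 0.26 on the minus strand in asf1-1 (452 and 444 probes). In Δhip1 it was 0.14 and 0.08. The mean intensity of the probes had coefficients of -0.13 and 0.07 with distance on the asf1-1 array, and of -0.30 and 0.05 on the Δhip1 array. The asf1-1 values stayed between 0.55 and 0.64 on the plus and between 0.17 and 0.34 on the minus strand under the other ways of processing. Those of Δhip1 ranged from 0.11 to 0.33 on the plus and from -0.06 to 0.28 on the minus strand, so no trend with distance is settled for the minus strand of Δhip1.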

How the data were processed

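Both arrays were scanned with Agilent Feature Extraction 10.1.1.1, per the file headers, and what was used is the deposited median intensity per spot and per local background, before any normalization. The authors' files also hold a log10 ratio after background subtraction and dye normalization, with a p-value for each single spot, per the file headers. In the deposited series table, log2 values matched that ratio within 0.01, but were 0 wherever the p-value exceeded 0.05 (36.1% of asf1-1 and 43.1% of Δhip1 probes). Its column medians were 0, or -0.456 and -0.473 over values other than 0.

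Median intensities were corrected with normexp (offset 50) and normalized by loess within each array (limma 3.58.1, R 4.3.3), with control and outlier spots at weight 0. Probes well above background in at least 1 of 4 channels were used, and windows took at least 3 of them. The windows named are the 8 highest and 8 lowest per array, among those with at least 5 probes of which at least 80% lay on 1 side. To these were added the 6 largest differences each way, among windows with at least 5 probes, and runs of at least 3 windows. Stretches of probes were chosen after the values were seen. Single channels combine the loess ratio with mean intensities quantile-normalized between arrays. The members and lists were chosen with earlier results of these data known. The window steps were tested on simulated data, but only with probes well above background in all 4 channels, so the test did not cover the dimmer probes used here. Further steps ran in Python 3.11.15 (pandas 2.3.3, numpy 2.4.6, scipy 1.17.1), with matplotlib 3.10.9 for figures. With 1 array per mutant, the number of arrays limits the precision.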

Additional observations from a re-analysis of the deposited data

Results flagged for a closer look

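On the plus strand at chr2:4529001-4529960, the mutants moved in opposite directions, each by at least 1.5-fold. asf1-1 stood at -2.21 and Δhip1 at 0.72 on the log2 scale, a difference of -2.93, which was not tested. Under the other ways of processing the asf1-1 value lay between -2.75 and -2.18, whereas that of Δhip1 lay between -0.03 and 1.04, with the lowest value from median centring.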

How the results depend on the processing

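No paired analysis was possible because the labels number no replicates and there was 1 array for each mutant. The values compared were block medians, bins, the named windows, the run of 5 windows and the outermost minus strand. Among these, no value at least 2-fold from wild type changed sign. Values nearer to 0 did, among them the Δhip1 values of the run of 5 windows and of the outermost minus strand given below, and the asf1-1 plus-strand window at chr2:4526001 (-0.46, and 0.47 with median centring). The minus-strand window at chr2:4538051-4539010, counted as higher in Δhip1, was not a named window. Its Δhip1 value was 1.06, and -0.12 with exchanged wild-type channels. In all, 378 of 400 bin values, 405 of 496 window values and 129 of 188 others stayed within 1 SD over probes, 0.25 on the log2 scale, 0.1 in Spearman's coefficient or 1.5-fold in a count. Values without background subtraction, without the filter on dim probes and with the mean over probes all stayed within these limits. Below, medians, bins and stretches are log2 ratios, bins are named by kb from the end, and counts are of windows in the block.

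The scanner log ratio gave medians of 0.83 (asf1-1 plus), 1.27 (asf1-1 minus) and 0.88 (Δhip1 minus). Bins became 2.41 (40 to 45) and 0.91 (45 to 50) on asf1-1 plus, 1.54 (45 to 50) on asf1-1 minus, and 1.54 (0 to 5) and 0.89 (25 to 30) on Δhip1 minus. Spearman's coefficient with distance on Δhip1 minus was -0.040. Counts were 53 higher in asf1-1, 36 higher and 1 lower in Δhip1, and 21 higher and 14 lower for the difference. The run of 5 windows was -2.26 in asf1-1, and the outermost minus-strand windows 1.61 in Δhip1.

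The series table gave medians of 0 (asf1-1 plus) and 1.21 (asf1-1 minus), and bins of 2.41 (40 to 45, asf1-1 plus), 1.54 (45 to 50, asf1-1 minus) and 1.54 (0 to 5, Δhip1 minus). Counts were 49 higher in asf1-1, 32 higher and 1 lower in Δhip1, and 19 higher for the difference. The run was -2.26 in asf1-1 and 0 in Δhip1, and the outermost minus-strand windows were 1.61 in Δhip1.

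Median centring gave medians of 0.82 (asf1-1 plus), 1.25 (asf1-1 minus) and 0.80 (Δhip1 minus). Bins became -0.13 (0 to 5) and 1.91 (20 to 25) on asf1-1 plus, 0.60 (25 to 30) on Δhip1 plus and 1.38 (10 to 15) on asf1-1 minus. Spearman's coefficient with distance on Δhip1 minus was -0.055. Counts were 51 higher in asf1-1, 37 higher and 2 lower in Δhip1, and 10 higher for the difference. The run was -2.28 in asf1-1 and -0.29 in Δhip1, and the outermost minus-strand windows 0.62 and 1.18.

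Loess on bright probes gave medians of 0.98 (asf1-1 plus), 0.59 (Δhip1 plus), 1.18 (asf1-1 minus) and 0.83 (Δhip1 minus), bins of 1.08 (45 to 50, asf1-1 plus), 0.34 (25 to 30, Δhip1 plus) and 0.67 (45 to 50, Δhip1 plus), and Spearman's coefficient of 0.30 on Δhip1 plus. Counts were 64 higher and 6 lower in asf1-1, against 29 and 10, and 28 higher in Δhip1. The outermost minus-strand windows were 1.18 in Δhip1.

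With probes above background in all 4 channels, Spearman's coefficient was 0.33 (Δhip1 plus) and 0.28 (Δhip1 minus), the Δhip1 minus median 0.90, and bins 1.62 (45 to 50, asf1-1 minus), 1.24 (25 to 30), 2.05 (40 to 45) and 1.18 (45 to 50, Δhip1 minus). The difference was higher in 3 windows. With exchanged wild-type channels, Spearman's coefficient was 0.19 and bin 0 to 5 was 0.049 on Δhip1 minus, 1 window was lower in Δhip1, and the outermost minus-strand windows were 1.05 in asf1-1 and -0.27 in Δhip1. At 1.5-fold, counts were 48 higher in asf1-1, 39 higher and 2 lower in Δhip1, and 17 higher and 15 lower for the difference. With 2-kb windows, of which there are fewer, they were 12 higher and 4 lower in asf1-1, 10 higher in Δhip1, and 1 higher and 4 lower for the difference. In 10-kb bins, the asf1-1 plus value over 10 to 20 kb was -0.39. Apart from the last settings, whose construction sets the counts, the cause was not tested. Probes with a unique sequence were not run, since no probe sequences were used. Wild-type signal near background limits the size of rises.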
